A study of Mus musculus with 12 samples.

Results

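Hypoxia and glycolysis genes were followed in 3T3-L1 pre-adipocytes grown with or without macrophages. The set held 40 mouse genes, taken by name: 14 enzymes of glycolysis, 7 genes of glucose and lactate transport, glycolytic regulation and glycogen, 18 other genes known as targets of the hypoxia-inducible factors (HIF), and Hif1a itself. Members were found through the accession of each probe, matched to current gene symbols, so that the array names Ero1l and Pkm2 stand for Ero1a and Pkm. All 40 had a probe, among 20886 named genes on the array, and 37 of them were among the 13829 genes tested.

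Glycolysis splits glucose into pyruvate, and lactate dehydrogenase then turns pyruvate into lactate so that the pathway can run without oxygen. HIF is a pair of proteins, an oxygen-regulated alpha subunit such as the product of Hif1a and a stable partner, Arnt. Prolyl hydroxylases (the Egln genes) mark the alpha subunit for destruction when oxygen is present, so HIF activity is set mainly at the protein level. HIF binds short DNA elements near glycolytic genes and near genes of acid export, collagen processing, vessel growth and mitochondrial turnover. Low oxygen is not the only setting in which these genes are expressed, since growth signals and inflammatory signals also act on them.

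3T3-L1 cells are mouse fibroblasts able to become fat cells, and RAW264.7 is a mouse macrophage line. Each of 12 dual-colour arrays compared RNA of 3T3-L1 cells co-cultured with RAW264.7 cells, labelled with Cy5, with RNA of 3T3-L1 cells grown alone under the same treatment for the same time, labelled with Cy3. The 4 treatments were no hormone (NT), serotonin at 100 µM (S), cortisol at 100 µM (C) and both hormones at 100 µM each (CS), and each was sampled at 6, 24 and 48 h. In all groups the 3T3-L1 cells had been stabilized as pre-adipocytes before the start. In co-culture the macrophages sat in inserts with 0.4 µm pores above the 3T3-L1 cells, hormones were renewed with the medium after 24 h, and the lower well gave the RNA. Each condition had 1 array, no dyes were swapped, and each time had its own slide, so dye bias is part of every ratio, and slide and time cannot be told apart. The arrays of the 4 treatments at a time served as its replicates once an additive term for treatment was fitted, so a p-value reflects no more than the spread among these arrays. In such bulk RNA, fewer cells of a type and less RNA per cell cannot be told apart.

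Values are log2 ratios of co-cultured cells over cells alone unless a channel is named, a value of 1 being a doubling, and errors are standard errors of the limma fit. A gene was called, and is said to have risen or fallen, at a Benjamini-Hochberg adjusted p under 0.05 over all genes tested together with a change of at least 1.5-fold. Across all genes the ratios had a standard deviation of 0.333 to 0.449 on the arrays of 6 and 24 h and of 0.666 to 0.699 on those of 48 h. No spot on any array was saturated. The RNA of cells alone went against its labels on 3 arrays. Zbtb16, a gene induced by glucocorticoids, lay at log2 intensities of 8.35 to 8.71 in cells alone under NT and of 11.28 to 11.34 under C, but at 10.66 and 10.53 in the cells alone labelled S at 6 and 24 h, and at 9.18 in those labelled CS at 24 h. Calls of members that were lost or gained without these 3 arrays are named with the results.

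The windows before the starts of these genes were searched for the core of the HIF element, ACGTG or GCGTG, on both strands. Within 250 bases upstream of the RefSeq start (assembly GRCm38.p6), 26 of the 37 members with a window held a core (70.3%), against 10431 of 27025 genes (38.6%). The share was 8 of 14 among glycolytic enzymes (57.1%), 5 of 7 among transport, regulation and glycogen genes (71.4%), and 12 of 15 among the other HIF targets (80%). The other targets were listed because they are known as HIF targets, so a high share among them could be foreseen. The 27025 genes were all genes with a window, not the genes tested on the arrays. Only the first listed window of a gene was searched. Of the members 11 had several windows, and for 14 the window overlapped the outermost span of the gene. Windows of members also held more CpG pairs, a median of 14 against 6 over all genes, and the shares were not matched for base composition. ACGTG is also part of the E-box CACGTG, which other factors bind, and a match says nothing of binding in these cells. The last 160 bases before the start are printed 5′ to 3′ on the strand of the gene, with cores on either strand in capitals (CACGT and CACGC are the cores read on the other strand). Shown are 6 members that rose at all 3 times, Gbe1 among them with no core, and Bnip3, whose stretch has the most cores of those printed.
Slc2a1 (chr4:119108585-119108744, plus strand): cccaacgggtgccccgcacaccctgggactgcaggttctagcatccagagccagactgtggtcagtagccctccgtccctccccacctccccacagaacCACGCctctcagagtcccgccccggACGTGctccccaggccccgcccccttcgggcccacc
Hk2 (chr6:82774455-82774614, minus strand): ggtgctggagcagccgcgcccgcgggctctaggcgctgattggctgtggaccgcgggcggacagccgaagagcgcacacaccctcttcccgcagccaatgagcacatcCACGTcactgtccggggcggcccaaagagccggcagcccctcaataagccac
Gbe1 (chr16:70313789-70313948, plus strand): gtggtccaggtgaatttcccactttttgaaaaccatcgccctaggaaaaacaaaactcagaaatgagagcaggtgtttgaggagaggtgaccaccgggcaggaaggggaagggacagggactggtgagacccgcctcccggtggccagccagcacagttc
P4ha2 (chr11:54100764-54100923, plus strand): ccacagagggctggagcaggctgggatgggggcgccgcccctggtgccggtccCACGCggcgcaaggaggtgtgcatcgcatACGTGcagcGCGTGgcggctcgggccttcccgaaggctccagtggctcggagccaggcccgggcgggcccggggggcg
Ero1a (chr14:45318573-45318732, minus strand): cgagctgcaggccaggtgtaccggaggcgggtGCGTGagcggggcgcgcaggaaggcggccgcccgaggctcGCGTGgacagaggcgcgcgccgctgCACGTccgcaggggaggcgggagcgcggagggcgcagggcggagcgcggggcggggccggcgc
Bnip3 (chr7:138909507-138909666, minus strand): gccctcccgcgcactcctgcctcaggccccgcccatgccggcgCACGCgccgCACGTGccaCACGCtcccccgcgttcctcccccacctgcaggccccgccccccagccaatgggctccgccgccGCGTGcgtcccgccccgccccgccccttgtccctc
Adm (chr7:110627497-110627656, plus strand): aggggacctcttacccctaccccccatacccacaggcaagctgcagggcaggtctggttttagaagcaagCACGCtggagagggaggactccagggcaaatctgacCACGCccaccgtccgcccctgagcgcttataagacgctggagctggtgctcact

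Hypoxia and glycolysis genes rose in co-culture at every time. At 6 h 19 of 37 rose and 0 fell, where 4.4% of all genes tested rose and 5.27% fell. At 24 h 22 rose and 0 fell, against 4.69% and 3.7% of all genes. At 48 h 25 rose and 1, Hif1a, fell, against 14.6% and 16.8% of all genes. The median ratio of the 37 members was 0.60 at 6 h, 0.65 at 24 h and 0.90 at 48 h, where all genes had medians between -0.02 and 0.00. At 6 and 24 h 33 of 37 members, and at 48 h 32, lay above 0 on every array measured.

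Most members that rose did so at more than 1 time. Slc2a1, Hk2, Eno2, Gbe1, Car9, Car12, Ero1a, Ankrd37, P4ha2, Plod2, Adm and Vegfa, 12 in all, rose at all 3 times, 12 others rose at 2 times and 6 at 1 time. The 7 that rose at no time with loess were the glycolytic enzymes Pfkl, Tpi1, Pgam1, Eno1 and Pkm, the collagen prolyl hydroxylase subunit P4ha1, and Hif1a. With loess and these thresholds no member rose at 1 time and fell at another. With each array centred on its median instead, Hif1a rose at 6 h and fell at 48 h. Leaving out the 3 arrays with doubtful labels left the counts of members that rose at 19, 22 and 25, but not the same members. At 6 h Pdk1 and Pfkfb3 lost the call and Aldoc (0.63) and Ndrg1 (0.68) gained it, and at 24 h Gys1 lost it and Kdm3a (0.65) gained it. By role, the counts without those arrays were 3 glycolytic enzymes, 3 transport, regulation and glycogen genes and 13 other HIF targets at 6 h, and 6, 4 and 12 at 24 h.

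**Figure D1:**
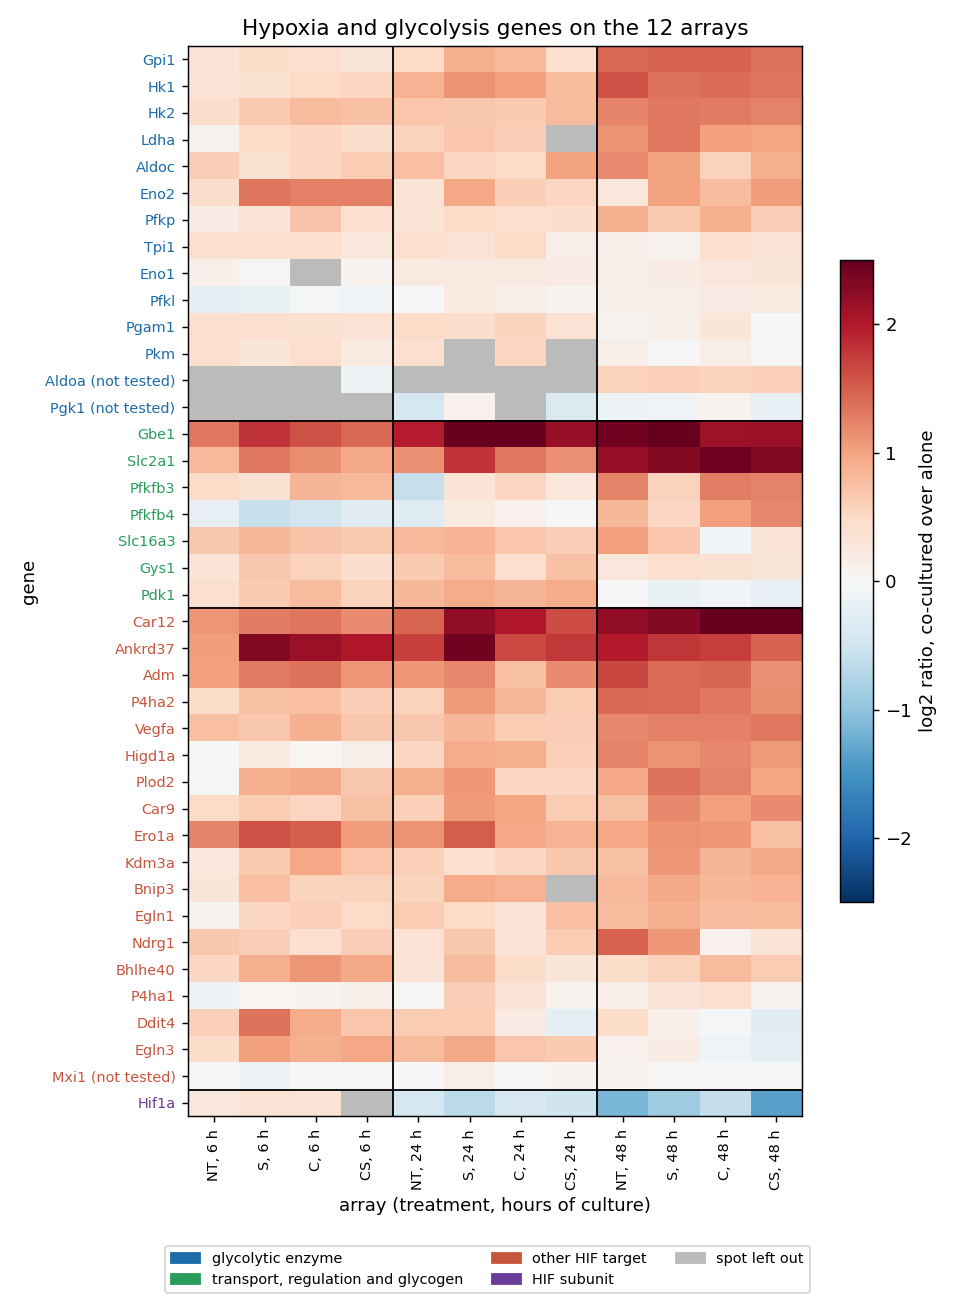
Log2 ratios of co-cultured cells over cells alone for the 40 genes (rows, gene names coloured by role) on the 12 arrays (columns, treatment and hours of culture), with grey for spots left out. Most rows are above 0 on all arrays, Hif1a turns from 0.28 to 0.37 at 6 h to -1.35 to -0.59 at 48 h, and Pdk1 and Egln3 are near 0 at 48 h.

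Among glycolytic enzymes, 2 of the 12 tested rose at 6 h, 6 at 24 h and 7 at 48 h, with median ratios of 0.39, 0.54 and 0.77 and none that fell. Hexokinase, which traps glucose in the cell as glucose 6-phosphate, was represented by Hk1 and Hk2. Hk2, the inducible form, had log2 ratios, in the order NT, S, C and CS, of 0.45, 0.65, 0.80 and 0.74 at 6 h, 0.70, 0.68, 0.66 and 0.79 at 24 h and 1.23, 1.31, 1.29 and 1.24 at 48 h. The 48 h arrays lay above all others, and those of 6 and 24 h overlapped. Its fitted ratio was 0.66 ± 0.05, 0.71 ± 0.05 and 1.27 ± 0.05 at the 3 times (adjusted p = 5.75e-06, 2.46e-06 and 5.2e-09). For Hk1, the form found in most tissues, the values were 0.31, 0.38, 0.50 and 0.54 at 6 h, 0.86, 1.13, 1.02 and 0.79 at 24 h and 1.59, 1.37, 1.40 and 1.34 at 48 h. No array of 1 time overlapped those of another, and Hk1 was called at 24 h (0.95 ± 0.06, adjusted p = 1.9e-06) and 48 h (1.42 ± 0.06, adjusted p = 1.12e-08) but not at 6 h, where its ratio was 0.43 ± 0.06. The second, dimmer probe of Hk1 gave 0.58, 0.75 and 0.93.

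Gpi1, which turns glucose 6-phosphate into fructose 6-phosphate, had ratios of 0.35, 0.45, 0.41 and 0.31 at 6 h, 0.49, 0.89, 0.80 and 0.41 at 24 h and 1.44, 1.47, 1.48 and 1.39 at 48 h. The 4 arrays of 48 h lay close together and far above the rest, and those of 6 and 24 h overlapped. The fitted ratio reached 1.44 ± 0.05 at 48 h (2.72-fold, adjusted p = 3.34e-09), and 3 probes of the gene gave 1.44, 1.49 and 1.52 there. At 24 h it was 0.65 ± 0.05, and without the S array of that time it was 0.58 and no longer called.

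Of the phosphofructokinase subunits, which form the committed step, Pfkp rose at 48 h alone (0.76 ± 0.08, arrays 0.62 to 0.90, adjusted p = 3.95e-06) and Pfkl at no time, its fitted ratios being -0.13, 0.12 and 0.17. Aldoc, an aldolase, rose at 24 h (0.69 ± 0.08) and 48 h (0.91 ± 0.08). Eno2, the enolase named for neurons, rose at all 3 times, with fitted ratios of 1.08, 0.61 and 0.77. Its NT array was the lowest of each time, and without the NT array or the S array of 24 h its ratio there was 0.51 or 0.58 and was not called. The abundant enolase Eno1 had ratios of 0.08, 0.22 and 0.24 and was not called.

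Ldha makes the lactate dehydrogenase subunit that favours lactate formation. It had ratios of 0.08, 0.48, 0.54 and 0.44 at 6 h, 0.57, 0.69 and 0.62 at 24 h (without CS) and 1.13, 1.32, 1.02 and 0.98 at 48 h, the spot left out carrying an outlier flag. No time overlapped another, NT at 6 h was the lowest array, and the fitted ratio was 0.61 ± 0.08 at 24 h (adjusted p = 0.000204) and 1.11 ± 0.07 at 48 h (adjusted p = 1.72e-07). The call at 24 h was lost without the NT array of 24 h (0.57) or the CS array of 6 h (0.58). The probes of Ldha disagreed: at 48 h the others gave 0.65 and -0.09, and the mean of all its probes, 0.39 at 24 h and 0.56 at 48 h, was called at neither time.

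Like Eno1 and Pfkl, 3 further enzymes were called at no time with loess, though all 12 tested enzymes rose at 24 h under median centring. Tpi1, triosephosphate isomerase, had fitted ratios of 0.37, 0.34 and 0.24, Pgam1, phosphoglycerate mutase, of 0.39, 0.46 and 0.13, and Pkm, which encodes the muscle-type pyruvate kinases, of 0.34, 0.40 (2 arrays) and 0.08. All 3 lay above 0 on every array measured with these probes. A dimmer second probe of Tpi1 gave -0.011, -0.035 and 0.397 at 6, 24 and 48 h. Aldoa and Pgk1, among the brightest spots, carried outlier flags on 7 and 5 arrays and were not tested. With flagged spots kept, Aldoa stood at -0.21, -0.06 and 0.58 at 6, 24 and 48 h and Pgk1 at -0.32, -0.19 and -0.08, none of them called, a setting chosen after seeing the data. In that setting the ratio of Aldoa rose by 0.79 ± 0.09 from 6 to 48 h. The medians of the 14 glycolytic enzymes were then 0.38, 0.44 and 0.67 at the 3 times.

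**Figure D2:**
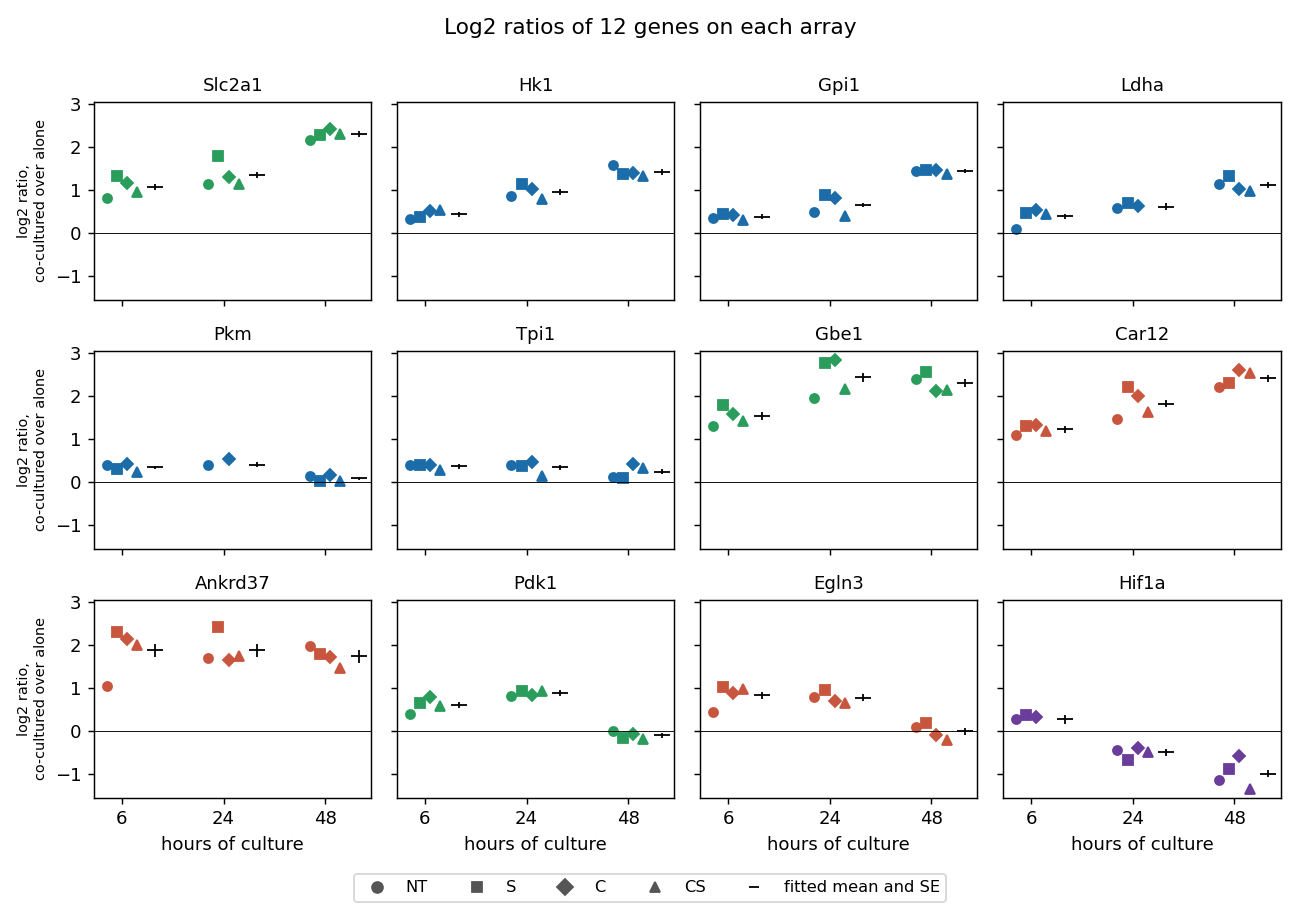
Log2 ratio of co-cultured cells over cells alone (y) at 6, 24 and 48 h (x) for 12 genes, 1 symbol per treatment, with the fitted mean and its standard error as bars. Slc2a1, Gpi1, Hk1, Ldha and Car12 reach 1.11 to 2.42 at 48 h, Pkm and Tpi1 stay at or under 0.54 on every array, and Pdk1, Egln3 and Hif1a are lower at 48 h than at 6 h.

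Genes that feed, steer or drain glycolysis rose from 6 h on, when 5 of 7 were called, against 5 after 24 h and 4 after 48 h, with medians of 0.63, 0.75 and 0.90. Slc2a1 encodes GLUT1, the glucose transporter of most growing cells. Its ratios were 0.81, 1.33, 1.16 and 0.96 at 6 h, 1.15, 1.80, 1.32 and 1.15 at 24 h and 2.18, 2.29, 2.43 and 2.32 at 48 h. All 4 arrays of 48 h lay above every earlier array, and those of 6 and 24 h overlapped. The fitted ratio was 1.06 ± 0.07 (2.09-fold, adjusted p = 2.61e-06), 1.35 ± 0.07 and 2.31 ± 0.07 (4.95-fold, adjusted p = 1.7e-09). Slc16a3, a lactate exporter, rose at 6 h (0.72 ± 0.11) and 24 h (0.75 ± 0.11) but at 48 h spread from -0.07 under C to 1.02 under NT, and was called there without the C array of 48 h (0.67).

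Pfkfb3 and Pfkfb4 make the enzymes that make and remove a sugar bisphosphate, an activator of phosphofructokinase. Pfkfb3 rose at 6 h (0.63 ± 0.13) and 48 h (1.09 ± 0.13), and at 24 h ran from -0.58 under NT to 0.54 under C. At 6 h the ratio of Pfkfb3 was 0.54 and not called without the 3 arrays with doubtful labels. Pfkfb4 was below 0 on all 4 arrays of 6 h (-0.38 ± 0.11, not called) and rose at 48 h (0.90 ± 0.11, adjusted p = 1.83e-05). A dim second probe of each gene, that of Pfkfb4 not above background, gave 0.16 and -0.05 at 48 h.

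Pdk1, the kinase that holds back pyruvate dehydrogenase and so keeps pyruvate out of the mitochondrial cycle, rose at 6 h (0.61 ± 0.06) and 24 h (0.88 ± 0.06, adjusted p = 3.11e-06). At 48 h all 4 of its arrays lay between -0.20 and 0.00. The call at 6 h was lost without the C array of that time (0.55) and without the 3 doubtful arrays (0.57).

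The glycogen genes were led by Gbe1, the branching enzyme. Its ratios were 1.31, 1.81, 1.596 and 1.43 at 6 h, 1.96, 2.77, 2.85 and 2.17 at 24 h and 2.40, 2.57, 2.13 and 2.15 at 48 h. The 6 h arrays lay below all others, and those of 24 and 48 h overlapped. Fitted ratios of 1.54 ± 0.10, 2.44 ± 0.10 and 2.31 ± 0.10 (adjusted p = 2.16e-06, 8.53e-08 and 8.54e-09) made Gbe1 the member with the highest ratio at 24 h, 5.42-fold. Gys1, the muscle-type glycogen synthase, was called at 24 h alone (0.65 ± 0.06), and at 0.56 it was not called there without the 3 doubtful arrays. A second probe of Gys1 gave 0.76 at 48 h, where the main probe gave 0.34 ± 0.06.

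Of 17 tested HIF targets outside carbohydrate metabolism 12 rose at 6 h (70.6%), 11 at 24 h (64.7%) and 14 at 48 h (82.4%), with medians of 0.64, 0.75 and 0.98. Mxi1, a Myc antagonist, was not well above background on any array and was not tested. Both membrane carbonic anhydrases, which help cells handle acid, rose at every time. Car12 had ratios of 1.11, 1.30, 1.33 and 1.19 at 6 h, 1.46, 2.22, 2.001 and 1.63 at 24 h and 2.21, 2.30, 2.60 and 2.55 at 48 h. Its arrays were lowest at 6 h, and those of 24 and 48 h overlapped by 1 array, S at 24 h lying just above NT at 48 h. The fitted ratio of Car12 was 1.23 ± 0.08, 1.83 ± 0.08 and 2.42 ± 0.08, the last (5.34-fold, adjusted p = 2.74e-09) being the highest of any member at that time. Car9, the best known HIF target of the pair, rose less, to 1.04 ± 0.07 at 48 h, and its 6 h ratio of 0.60 was 0.55 and not called without either the NT or the CS array of that time.

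Secreted factors rose throughout. Vegfa, the vascular growth factor, had ratios of 0.75, 0.67, 0.89 and 0.68 at 6 h, 0.68, 0.83, 0.63 and 0.61 at 24 h and 1.21, 1.25, 1.25 and 1.31 at 48 h. Its arrays of 48 h lay above all others and those of 6 and 24 h overlapped, with a fitted ratio of 1.25 ± 0.05 at 48 h (adjusted p = 8.46e-09), where a dimmer probe gave 2.14. Adrenomedullin, Adm, a peptide that widens vessels, had ratios of 1.02, 1.30, 1.35 and 1.11 at 6 h, 1.09, 1.21, 0.74 and 1.17 at 24 h and 1.67, 1.40, 1.46 and 1.15 at 48 h. The 3 times overlapped, and C at 24 h was the lowest array. Its fitted ratios were 1.20 ± 0.09, 1.05 ± 0.09 and 1.42 ± 0.09.

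Ero1a, an oxidase that forms disulfide bonds in the endoplasmic reticulum, had ratios of 1.22, 1.59, 1.52 and 1.05 at 6 h, 1.12, 1.51, 0.98 and 0.87 at 24 h and 0.97, 1.13, 1.09 and 0.73 at 48 h. Its times overlapped, S was the highest array of each, and the fitted ratio was 1.35 ± 0.06 at 6 h (adjusted p = 3.21e-07) and 0.98 ± 0.06 at 48 h. P4ha2, a collagen prolyl hydroxylase subunit, had ratios of 0.47, 0.74, 0.75 and 0.62 at 6 h, 0.59, 1.06, 0.84 and 0.64 at 24 h and 1.44, 1.42, 1.33 and 1.17 at 48 h.

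All 48 h arrays of P4ha2 lay above the earlier ones, which overlapped, and its fitted ratio reached 1.34 ± 0.06 (adjusted p = 1.66e-08). The sister subunit P4ha1 was not called at any time with loess (0.03, 0.27 and 0.25), although its dimmer probe gave 0.72 at 48 h. Plod2, which hydroxylates lysines of collagen, had ratios of -0.05, 0.90, 0.95 and 0.67 at 6 h, 0.88, 1.08, 0.52 and 0.51 at 24 h and 0.96, 1.38, 1.25 and 0.98 at 48 h. NT at 6 h was the only Plod2 array below 0, and the times overlapped. Fitted ratios of Plod2 were 0.62 ± 0.12, 0.75 ± 0.12 and 1.14 ± 0.12 (adjusted p = 5.68e-06). The call at 6 h was lost without the C (0.49) or the CS array (0.53) of 6 h, and the call at 24 h without the NT array of 24 h (0.56).

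Ankrd37, a small ankyrin repeat gene, had the highest ratio of any member at 6 h. Its values were 1.04, 2.32, 2.15 and 2.01 at 6 h, 1.71, 2.42, 1.65 and 1.76 at 24 h and 1.98, 1.79, 1.74 and 1.48 at 48 h. NT at 6 h was the lowest array and S at 24 h the highest, and the times overlapped fully. Its fitted ratio hardly differed between them (1.88 ± 0.15, 1.88 ± 0.15 and 1.75 ± 0.15).

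Of the genes that act at mitochondria, Bnip3, a mitophagy receptor, rose at 24 h (0.79 ± 0.06) and 48 h (0.87 ± 0.05, adjusted p = 9.85e-08), and 3 probes gave 0.79 to 0.87 at 48 h. Higd1a, a small protein of the inner mitochondrial membrane, had ratios of 0.01, 0.23, 0.05 and 0.15 at 6 h, 0.55, 0.93, 0.90 and 0.60 at 24 h and 1.24, 1.13, 1.20 and 1.05 at 48 h. No time overlapped another. It was not called at 6 h (0.11 ± 0.06) and stood at 1.16 ± 0.06 at 48 h (adjusted p = 2.46e-08). Its dimmer probe gave 0.52, 0.96 and 0.71.

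The hydroxylases that mark HIF for destruction, themselves known HIF targets, went different ways. Egln3 rose at 6 h (0.84 ± 0.08) and 24 h (0.78 ± 0.08) and lay between -0.22 and 0.18 at 48 h, where its other probe gave 0.31. Egln1 was called at 48 h alone (0.81 ± 0.09), and at 24 h too without the S (0.62) or the C array (0.65) of 24 h. The histone demethylase Kdm3a rose at 6 h (0.64 ± 0.08, 0.52 and not called without the C array of 6 h) and 48 h (0.91 ± 0.08), and Bhlhe40, a repressor of the clock, at 6 h (0.87 ± 0.07) and 48 h (0.61 ± 0.07). Ddit4, an inhibitor of mTORC1, rose at 6 h alone (0.89 ± 0.11), and its arrays of 48 h ran from -0.27 to 0.45. Ndrg1, a stress response gene, was called at 48 h (0.75 ± 0.14) on arrays that ran from 0.11 under C to 1.48 under NT, and without the NT array it was 0.50 and not called. At 6 and 24 h Ndrg1 was called once the NT array of that time was left out (0.65 and 0.70), and at 6 h also without the S array (0.65).

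Hif1a itself moved the other way after 6 h. Its ratios were 0.28, 0.37 and 0.33 at 6 h (without CS), -0.44, -0.67, -0.40 and -0.49 at 24 h and -1.15, -0.89, -0.59 and -1.35 at 48 h, the spot left out carrying an outlier flag. The 6 h arrays lay above 0 and all later ones below, and those of 24 and 48 h overlapped. Hif1a fell at 48 h (-0.997 ± 0.08, adjusted p = 2.07e-06), where all 4 arrays were below 0. At 24 h its ratio of -0.50 ± 0.08 was under the 1.5-fold threshold, was called lower without the CS array of 24 h, and was 0.57 under median centring in place of loess. Among 14 genes of the HIF machinery, 1 rose at 6 h, 1 at 24 h and 3 at 48 h, and 0, 0 and 1 fell. At 6 and at 24 h 7.14% rose, against 4.4% and 4.69% of all genes. At 48 h 21.4% rose and 7.14% fell, against 14.6% and 16.8% of all genes. At that time Vhl, which recognises hydroxylated HIF, stood at 1.40 ± 0.13, Arnt at 0.86 ± 0.06, and Hif1an, the asparaginyl hydroxylase of HIF, at 0.82 ± 0.15, while Cul2, a scaffold of the Vhl ligase, stood at -1.71 ± 0.45. Epas1, which encodes another HIF alpha subunit, was not called (0.18 ± 0.12).

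Set side by side, glycolytic enzymes had lower ratios than the other HIF targets at each time, with medians of 0.39 and 0.64 at 6 h, 0.54 and 0.75 at 24 h, and 0.77 and 0.98 at 48 h, as a description with no test of the groups. On each of the 12 arrays the median of the 12 glycolytic enzymes lay below that of the 17 other targets. Within each group the spread was wide: at 48 h glycolytic enzymes ran from 0.08 (Pkm) to 1.44 (Gpi1) and the other targets from -0.01 (Egln3) to 2.42 (Car12). The order of the groups depended on how the dyes were balanced. Glycolytic enzymes are bright, with a median average log2 intensity of 15.8 against 13.5 for the other targets and 10.8 for all genes. With each array centred on its median instead of loess, which removes dye bias that changes with brightness, the brightest 10% of genes had median ratios of 0.74 to 1.67 on the arrays of 6 and 24 h and of 0.32 to 0.44 on those of 48 h. Under that centring the median of all genes moved to 0.23, 0.39 and -0.16 at the 3 times, and relative to it glycolytic enzymes stood at 1.41, 1.43 and 0.84 and the other targets at 1.22, 1.01 and 1.09, so that the order turned at 6 and 24 h. All 19 members called at 6 h, all 22 at 24 h, and 22 of the 26 called at 48 h were called the same way under it. With the scanner's own processed signals the groups stood, relative to all genes, at 0.26, 0.45 and 0.95 against 0.79, 0.78 and 1.05.

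**Figure D3:**
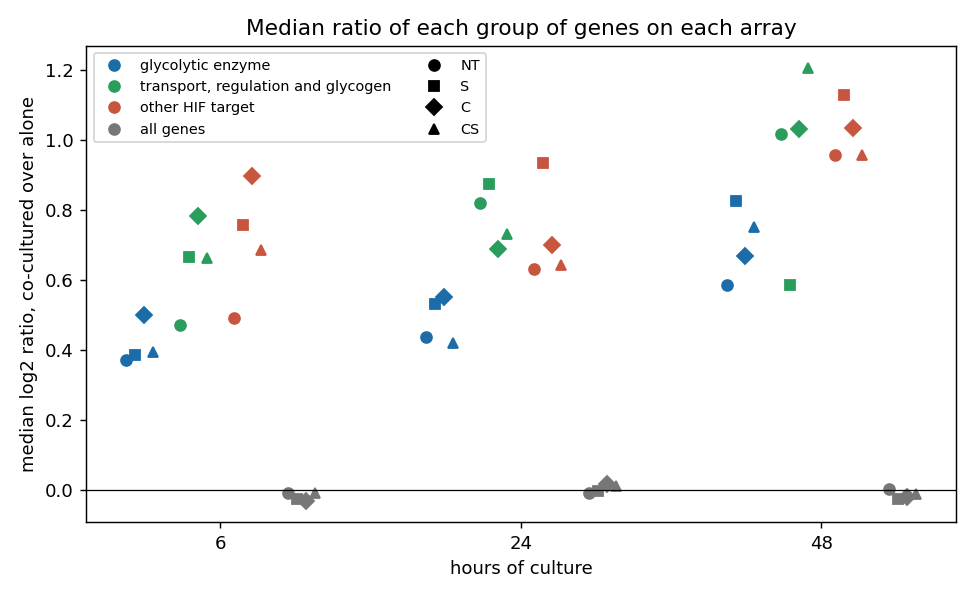
Median log2 ratio of co-cultured cells over cells alone (y) of each group of genes on each array (1 symbol per treatment) at 6, 24 and 48 h (x). Glycolytic enzymes lie between 0.37 and 0.83, the other HIF targets between 0.49 and 1.13 and all genes between -0.03 and 0.02.

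The ratio of some members differed between times. From 6 to 24 h 3 members rose and 1 fell (1.74% and 0.73% of all genes): Gbe1 by 0.90 ± 0.14, Higd1a by 0.63 ± 0.08 and Car12 by 0.59 ± 0.12 rose, and Hif1a changed by -0.77 ± 0.13. None of these 4 was called without the 3 doubtful arrays, and without the C array of 24 h Gbe1 alone was. Single arrays of 6 h also decided calls: Hif1a was not called without S, Higd1a without C, and Car12 without S, C or CS. Car12 was not called without the S array of 24 h either (0.46). Under median centring the calls of Gbe1, Higd1a and Car12 from 6 to 24 h held, and that of Hif1a was lost. From 24 to 48 h 5 rose and 2 fell (9.41% and 11.7% of all genes). Slc2a1 (0.95 ± 0.10), Pfkfb3 (0.95 ± 0.19), Pfkfb4 (0.90 ± 0.15), Gpi1 (0.80 ± 0.07) and Car12 (0.59 ± 0.12) rose, and Pdk1 (-0.99 ± 0.09, adjusted p = 1.05e-05) and Egln3 (-0.78 ± 0.12) fell. The call of Car12 was lost without the NT or CS array of 24 h or the NT, C or CS array of 48 h (0.51 to 0.58). Without the 3 doubtful arrays Adm (0.59), P4ha2 (0.63) and Vegfa (0.61) were called as well. Under median centring the calls of Pdk1 and Egln3 held, and those of the 5 rises were lost, with Car12 (-0.24) and Gpi1 (-0.089) turning sign.

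From 6 to 48 h 10 members rose and 4 fell (12% and 12.3% of all genes). The rises were those of Pfkfb4 (1.28 ± 0.15), Slc2a1 (1.24 ± 0.10, adjusted p = 3.58e-06), Car12, Gpi1 (1.06 ± 0.07, adjusted p = 1.44e-06), Higd1a, Hk1, Gbe1, Ldha, P4ha2 and Hk2, the last 0.55 and not called without the NT array of 6 h. Hif1a (-1.27 ± 0.13), Egln3, Ddit4 and Pdk1 fell, by 0.71 to 1.27. Glycolytic enzymes made up 4 of the 10 rises, transport, regulation and glycogen genes 3, and the other targets 3. Under median centring 5 of the 14 were called the same way, namely Pfkfb4, Hif1a, Egln3, Ddit4 and Pdk1, and Hk1 (-0.02) and Hk2 (-0.22) turned sign. Slide and time cannot be told apart in any of these differences.

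**Figure D4:**
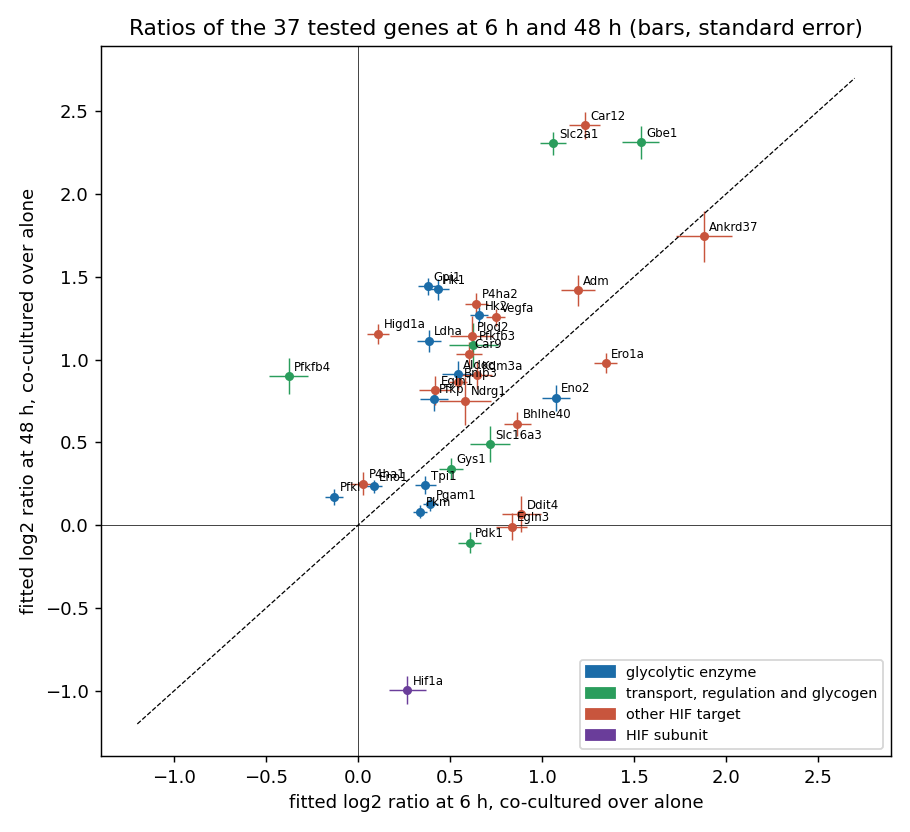
Fitted log2 ratio of the 37 tested genes at 6 h (x) and 48 h (y), coloured by role, with standard errors as bars. Slc2a1, Car12 and Gbe1 stand highest at 48 h (2.31 to 2.42), and Hif1a is the lowest at -0.997.

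The 2 channels were also fitted apart, to see in which culture a member moved between 6 and 48 h. In co-cultured cells (Cy5) 10 members rose and 4 fell, against 13.6% and 15.1% of all genes, and in cells alone (Cy3) 5 rose and 4 fell, against 6.83% and 6.91%. Slc2a1 had mean log2 intensities of 15.25, 15.21 and 16.14 at 6, 24 and 48 h in co-cultured cells and of 14.19, 13.86 and 13.83 in cells alone. The rise in co-cultured cells, 0.89 ± 0.10, was called (adjusted p = 4.76e-05), and the difference in cells alone, -0.36 ± 0.12, was not. Gbe1 (1.02 ± 0.11), Ldha (0.94 ± 0.07), Pfkfb4 (0.91 ± 0.10), Pfkfb3, Car12 and Vegfa likewise rose in co-cultured cells and were not called in cells alone. Without the 3 doubtful arrays Gpi1 (0.59) and Pfkp (0.60) were called in co-cultured cells as well.

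The ratios of Hk1 and Higd1a rose with lower intensity in cells alone. Hk1 had means of 16.93, 16.89 and 16.85 in co-cultured cells and of 16.49, 15.94 and 15.42 in cells alone, a difference of -1.07 ± 0.15 between 6 and 48 h in the latter (adjusted p = 0.000656). Higd1a (-0.66 ± 0.08), Pfkl (-0.67 ± 0.11) and P4ha1 (-0.64 ± 0.16) also fell in cells alone. The call of Pfkl was lost without the S array of 6 h (-0.55) and without the 3 doubtful arrays (-0.58), and that of P4ha1 without the S array of 6 h (-0.52) or the CS array of 48 h (-0.58). The ratios of Pfkl and P4ha1 were not called between these times. Their means in co-cultured cells were lower at 48 h too, from 13.93 to 13.56 and from 13.46 to 13.04. Ankrd37 (1.22 and 1.36), P4ha2 (1.48 and 0.78) and Ndrg1 (1.03 and 0.86) rose in both channels, and Ero1a (0.72) and Ddit4 (0.89) rose in cells alone.

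Hif1a fell in co-cultured cells, with means of 14.68, 14.78 and 13.71, while cells alone had means of 14.35, 15.28 and 14.71, highest at 24 h. Its change from 6 to 48 h was -0.95 ± 0.16 in co-cultured cells (adjusted p = 0.000775) and 0.31 ± 0.12, not called, in cells alone. Pdk1 (-0.76), Slc16a3 (-0.74) and Pkm (-0.63) also fell in co-cultured cells, Slc16a3 not being called without the C array of 48 h (-0.56). Under median centring all 4 falls in cells alone were lost, and 9 of the 14 calls in co-cultured cells and the 5 rises in cells alone held.

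**Figure D5:**
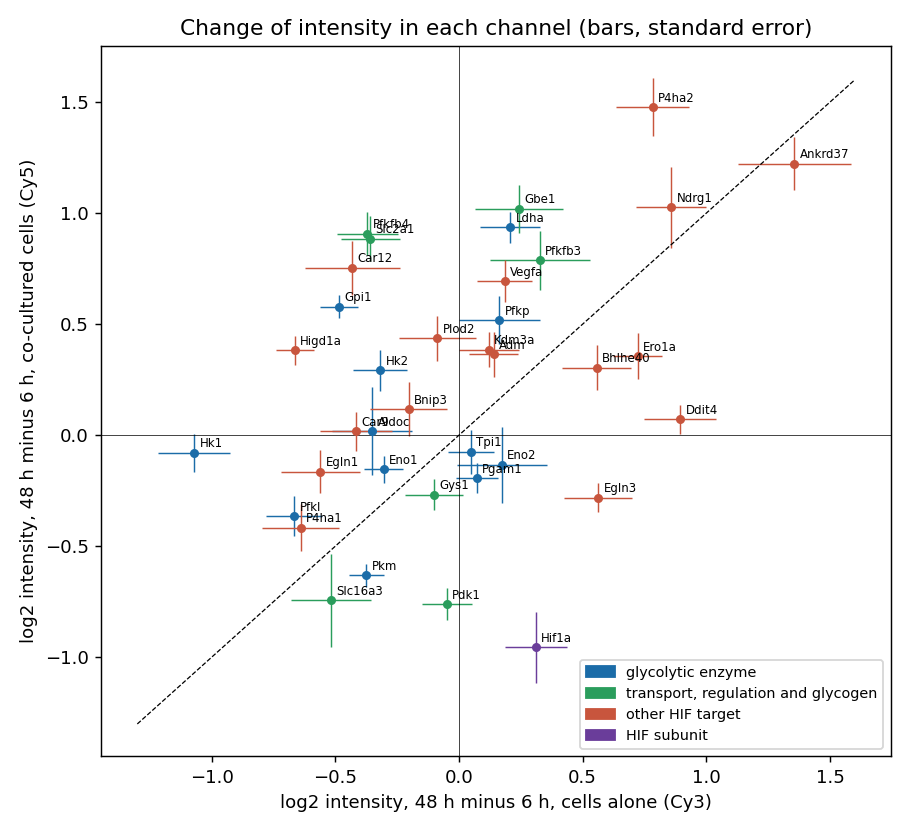
Change of log2 intensity from 6 to 48 h in cells alone (Cy3, x) and in co-cultured cells (Cy5, y) for the tested genes, coloured by role, with standard errors as bars. P4ha2, Ankrd37 and Gbe1 lie highest in co-cultured cells (1.02 to 1.48), Hk1 lies farthest left at -1.07, and Hif1a is lowest at -0.95.

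Hormones left the co-culture ratios of the members without a call. For cortisol, serotonin and both together against NT, limma called 0 of 37 members and 0% of all genes, and at an unadjusted p under 0.05 there were 9, 12 and 3 members and 1360, 1809 and 1274 of all genes. The lowest adjusted p of a member was 0.422, 0.261 and 0.323, and the median standard error of a hormone effect was 0.12, so that small effects were not detectable with these arrays. The cells alone labelled S at 6 and 24 h and CS at 24 h went against their labels. Estimates of serotonin and of both hormones on the ratio therefore rest in part on doubtful references. Eno2 had the highest estimate for each hormone, 0.53 ± 0.13 for cortisol, 0.75 ± 0.13 for serotonin and 0.59 ± 0.13 for both. Its ratios were 0.44, 1.34, 1.26 and 1.26 at 6 h, 0.34, 0.97, 0.61 and 0.53 at 24 h and 0.27, 1.01, 0.76 and 1.04 at 48 h, NT being lowest at each time, and serotonin was called for Eno2 once the NT array of 24 h was left out. In cells alone the log2 intensity of Eno2 was highest under NT at each time (11.88, 11.71 and 11.22), against 10.53 to 11.20 under the hormone labels. In co-cultured cells NT was highest at 6 and 24 h (12.32 and 12.05) and lowest at 48 h (11.50).

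In single channels an effect shared by both cultures does not cancel. Cortisol changed 1 member, Vegfa, in co-cultured cells (1.95% of all genes were called) and 0 in cells alone (0.181%). In cells alone 9 of 37 members and 2375 of all 13829 genes had an unadjusted p under 0.05. Vegfa in co-cultured cells had log2 intensities of 14.71, 14.73, 14.38 and 14.10 at 6 h, 15.39, 15.02, 14.56 and 14.83 at 24 h and 15.55, 15.37, 14.80 and 14.98 at 48 h. Cortisol arrays lay below NT arrays at each time, and CS arrays lay between 14.10 and 14.98. Cortisol minus NT was -0.64 ± 0.11 for Vegfa (adjusted p = 0.0193). The call was lost without the NT or C array of 24 h, the C array of 48 h or the 3 doubtful arrays. In cells alone the estimate was -0.68 ± 0.13 (adjusted p = 0.0703), and it was called without the CS array of 24 h or without the 3 doubtful arrays.

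Both hormones together changed 1 member in co-cultured cells, P4ha2 (3.67% of all genes were called), and 0 in cells alone (1.34%). In cells alone 7 of 37 members and 2667 of all 13829 genes had an unadjusted p under 0.05. P4ha2 in co-cultured cells had log2 intensities of 12.83, 13.17, 13.32 and 13.29 at 6 h, 12.80, 13.20, 13.17 and 13.996 at 24 h and 14.42, 14.52, 14.71 and 14.88 at 48 h. CS arrays lay above NT arrays at each time, most at 24 h, where the cells alone went against their label. CS minus NT was 0.70 ± 0.15 for P4ha2 (adjusted p = 0.0253), and the call was lost without the NT array of 6 h (0.71) or 24 h (0.60), the CS array of 24 h (0.47) or the 3 doubtful arrays (0.45). In cells alone the estimate was 0.72 ± 0.17 (adjusted p = 0.0652). For Vegfa the estimate of both hormones in co-cultured cells, -0.58 ± 0.11 (adjusted p = 0.0159), was just under 1.5-fold. Serotonin changed 0 members and 0% of all genes in either channel. At an unadjusted p under 0.05 there were 4 of 37 members and 889 of 13829 genes in co-cultured cells. In cells alone there were 13 members and 1086 genes. The cells alone labelled S at 6 and 24 h went against their label, so the result in cells alone says little of serotonin.

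Other genes of the same pathways, from lists drawn up by function, were read in the same fit, in which 4.4%, 4.69% and 14.6% of all genes rose at 6, 24 and 48 h and 5.27%, 3.7% and 16.8% fell. Of 18 tested genes of the rest of glycolysis, 2, 2 and 3 rose at 6, 24 and 48 h and 1, 1 and 2 fell, with medians of 0.11, 0.05 and 0.08. At 48 h these were 16.7% and 11.1%, near the shares of all genes. At 48 h Hkdc1, a hexokinase domain gene, stood at 2.90 ± 0.12 and Pfkm, the muscle phosphofructokinase, at 0.84 ± 0.07, while Eno3, the muscle enolase, stood at -1.09 ± 0.05 and Minpp1, an inositol phosphate phosphatase, at -0.66 ± 0.06. Of 11 other glucose and monocarboxylate transporters 4 rose (36.4%) and 1 fell (9.09%) at 48 h (median 0.21), led by Slc16a11 (1.49 ± 0.09) and the glucose transporter Slc2a8 (1.20 ± 0.05), with Slc16a6 at -0.63 ± 0.19. At 6 h 0 rose and 2 fell, and at 24 h 3 rose and 1 fell. Of 8 further glycogen genes 3, 4 and 3 rose (37.5%, 50% and 37.5%) and 0, 0 and 1 fell. Ppp1r3b (1.26 ± 0.06) and Ppp1r3d (-0.74 ± 0.15), subunits that bring a phosphatase to glycogen, and Pygm (0.70 ± 0.09), the muscle phosphorylase, were those called at the ends of that list at 48 h.

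In the mitochondrion pyruvate is turned into acetyl-CoA and burned. Of 21 genes of pyruvate entry and the TCA cycle 0, 1 and 2 rose and 2, 4 and 8 fell, with medians of -0.06, -0.15 and -0.37. The falls were 9.52%, 19% and 38.1% of the list, against 5.27%, 3.7% and 16.8% of all genes, and the rises at 48 h 9.52% against 14.6%. At 48 h Dlat (-1.92 ± 0.09) and Dld (-1.88 ± 0.09), subunits of the pyruvate dehydrogenase complex, were lowest, and Pdk4 (1.02 ± 0.28), a kinase that inhibits that complex, and Mdh2 (0.80 ± 0.05), malate dehydrogenase, were highest. In the pentose phosphate pathway 0 of 7 rose, and 0, 1 and 2 fell, Rpia (-1.58 ± 0.07) and G6pdx (-0.63 ± 0.04), its first enzyme, at 48 h.

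Of 38 further HIF targets outside the set 12, 12 and 14 rose (31.6%, 31.6% and 36.8%) and 1, 2 and 4 fell (2.63% and 5.26% at 6 and 24 h, and at 48 h a smaller share than the 16.8% of all genes), with medians of 0.33, 0.37 and 0.41. Loxl2, a collagen crosslinking enzyme, stood at 2.35 ± 0.09 at 48 h, and Tgfbi (-1.68 ± 0.08) and the transferrin receptor Tfrc (-1.06 ± 0.12) were lowest.

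Markers of other cells were read beside these results. Of 20 macrophage markers 19 had a probe and 14 were tested, and 7, 2 and 6 rose (50%, 14.3% and 42.9%) and 0, 0 and 1 fell at 6, 24 and 48 h, with medians of 0.56, 0.19 and 0.36. Their summed intensity was 12700 to 19400 in co-cultured cells and 8070 to 13900 in cells alone. Of the 19, 11 were well above background on all arrays in co-cultured cells and 8 in cells alone. Tyrobp, an adaptor of myeloid receptors, was so on 6 of 12 arrays in co-cultured cells and 0 in cells alone, and Fcer1g, Ctss and Coro1a on 12 and 10. Adgre1, Ptprc, Spi1, Fcgr3, Msr1 and Laptm5 were well above background on at most 3 of 12 arrays in either channel, and Lyz2 on 8 and 7. Csf1r, Cd14, Itgam, Itgb2, Aif1, Cd53, Clec4d and Mpeg1 were above background on all arrays of both channels, cells alone included. Fibroblast and pre-adipocyte markers were above background on all arrays for 12 of 13 genes, with a summed intensity of 277000 to 512000 over both channels, and at 48 h 2 rose and 5 fell (15.4% and 38.5%). Of 11 adipocyte markers 5 were tested, Adipoq was not above background on any array, and at 48 h Lpl (-2.37 ± 0.07) and Fabp4 (-0.79 ± 0.17) fell. The part of other cell types in the ratios of hypoxia and glycolysis genes was not tested.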

How the data were processed

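The authors scanned the arrays and extracted spots with Agilent Feature Extraction (10.7.3.1 per the file headers, while the submitters' processing notes give 10.5.1.1). Deposited for each spot are linear intensity values and local backgrounds, processed intensity, a log10 ratio of Cy5 over Cy3 and other columns, flags for outlier, saturated and well above background spots. Their value table repeats that log10 ratio. No spot was saturated.

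Background was corrected by normexp (offset 50) on median spot signals, followed by loess, in limma 3.58.1 (R 4.3.3, statmod 1.5.0, and the data.table package at 1.17.8), and outlier spots and spots with a local background over 5 times the array median were left out. Of 39429 probes, 27508 were named through RefSeq (GRCm38.p6), giving 20886 symbols. Probes well above background on 3 or more arrays in either channel were kept (23032), and the brightest stood for its gene, leaving 13829 genes. Ratios were fitted on time and treatment, additive, with lmFit and eBayes and a mean trend (6 residual degrees of freedom), and single channels, after Aquantile normalization, the same way. Adjusted p-values are limma's, two-sided and over all genes. Code was tested on simulated data. The number of arrays limits the precision.

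Values on all arrays are given for the 14 called members with the largest absolute ratio at any time and for Hif1a, and of other lists the 2 highest and 2 lowest called genes at 48 h are named, with Hif1an and Epas1 added after their values were seen. A result that this rule picked is not reported here. Members and lists were chosen with earlier results of these data known. Alternatives covered background, normalization, filters, probe choice, weights, thresholds and each array left out.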

Additional observations from a re-analysis of the deposited data

Results flagged for a closer look

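In sets of 4 arrays of 1 time, 4 of 106 held an array far from the other 3, where chance gives about 1 in 20. Eno2 stood at 0.44 on the NT array of 6 h and at 1.26 to 1.34 on the others. Ankrd37 stood at 2.42 on the S array of 24 h, whose cells alone went against their label, and at 1.65 to 1.76 on the others. Pfkfb3 stood at 0.58 on the S array of 48 h and at 1.24 to 1.28 on the others. Tpi1 stood at 0.28 on the CS array of 6 h and at 0.39 to 0.40 on the others.

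The co-culture ratio of several members differed between times by limma's test of the difference, at an adjusted p under 0.05 and at least 1.5-fold. From 6 to 24 h 3 of 37 rose and 1 fell, against 1.74% and 0.73% of all genes. From 24 to 48 h 5 rose and 2 fell, against 9.41% and 11.7%. From 6 to 48 h 10 rose and 4 fell, against 12% and 12.3%. From 6 to 24 h the differences were 0.90 for Gbe1, 0.63 for Higd1a, 0.59 for Car12 and -0.77 for Hif1a. From 24 to 48 h they were 0.95 for Slc2a1, 0.95 for Pfkfb3, 0.90 for Pfkfb4, 0.80 for Gpi1, 0.59 for Car12, -0.78 for Egln3 and -0.99 for Pdk1. From 6 to 48 h the members of glucose use stood at 1.28 (Pfkfb4), 1.24 (Slc2a1), 1.06 (Gpi1), 0.99 (Hk1), 0.78 (Gbe1), 0.73 (Ldha), 0.61 (Hk2) and -0.71 (Pdk1). The other HIF targets stood at 1.18 (Car12), 1.05 (Higd1a), 0.69 (P4ha2), -0.82 (Ddit4) and -0.84 (Egln3), and Hif1a at -1.27. Without the 3 doubtful arrays 0 of the 4 differences from 6 to 24 h were called. Under median centring 2 of 7 from 24 to 48 h and 5 of 14 from 6 to 48 h kept the call, and 2 of each turned sign. Slide and time cannot be told apart in these differences.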

How the results depend on the processing

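Called results kept their direction under every alternative except median centring, where Car12 (-0.24) and Gpi1 (-0.089) from 24 to 48 h and Hk1 (-0.022) and Hk2 (-0.22) from 6 to 48 h turned, none of them called. There 34 members rose at 6 h and 35 at 24 h, where 3497 and 4682 of all 13829 genes rose. From 24 to 48 h 19 members differed under it, and the share of all genes that did so was not counted. Of all genes called, 93.8%, 97.7% and 30.3% were higher under it at 6, 24 and 48 h, against 45.5%, 55.9% and 46.4% with loess, and 83% at 24 h with the scanner's processed signals, which moved the median of all genes there by 0.17. Without a fold threshold 32 rose and 2 (Pfkl, Pfkfb4) fell at 6 h, 1 (Hif1a) fell at 24 h, 10, 20 and 26 differed from 6 to 24, 24 to 48 and 6 to 48 h, and 28 in co-cultured cells and 19 in cells alone differed from 6 to 48 h. Of all 13829 genes 3292 rose and 3955 fell at 6 h without that threshold, and 3426 fell at 24 h. At an unadjusted p under 0.05, 17, 21 and 31 members differed between the times in that order, as did 3681, 8051 and 8350 genes. From 6 to 48 h co-cultured cells had 29 such members and 8583 such genes, and cells alone 22 and 6118. At 2-fold 7, 6 and 15 rose, 0 fell at 48 h, and 0, 0 and 6 ratios, 4 in co-cultured cells, 2 in cells alone and 0 for cortisol in co-cultured cells differed. Of all 13829 genes 175, 198 and 791 rose at 2-fold, and 884 fell at 48 h. Differences between times were not counted over all genes at 2-fold or without a fold threshold. Hif1a alone (1) fell at 24 h in the deposited log ratios. Vegfa was not called for cortisol in co-cultured cells (0) under quantile normalization or without the 3 doubtful arrays, and was called in cells alone (1) with array weights or without those arrays. For both hormones in co-cultured cells 2 (P4ha2, Vegfa) were called under median centring, scale normalization, array weights or with outlier spots kept, 3 (with Ddit4) without a fold threshold, and 0 at 2-fold or without the 3 arrays. Without those arrays 0 ratios differed from 6 to 24 h. Leaving out 1 array at a time gave 16 to 20, 20 to 24 and 24 to 26 members that rose, 0, 0 to 1 (Hif1a, without CS at 24 h) and 1 that fell, 1 to 5, 6 to 10 and 13 to 15 that differed between times, 0 for cortisol, 0 to 1 for serotonin (Eno2, without NT at 24 h) and 0 for both hormones on the ratio, 13 to 15 and 9 to 11 between 6 and 48 h in co-cultured cells and cells alone, 0 to 1 for cortisol in each, 0 for serotonin in each, and for both hormones 0 to 3 in co-cultured cells (highest without CS at 48 h, with Bnip3 and Vegfa) and 0 to 1 in cells alone. Mean spot signals were not used here. No paired analysis was possible because each condition has 1 array and so no replicate numbers to pair, beyond the pairing of both cultures on each array and the treatment term of the model.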

Other observations

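At 48 h the ratios of Slc16a3 and Ndrg1 were split by hormone, a pattern seen in the data and not tested. Slc16a3, a lactate exporter, stood at 1.02 under NT and 0.70 under S, against -0.07 under C and 0.32 under CS. Ndrg1, a stress response gene, stood at 1.48 and 1.08 under NT and S, against 0.11 and 0.32 under C and CS. In co-cultured cells the log2 intensity of Ndrg1 was 9.41 and 9.07 under NT and S and 8.15 and 8.48 under C and CS, and in cells alone it was 7.93, 7.99, 8.03 and 8.16. For Slc16a3 the values were 9.87, 9.17, 8.30 and 8.73 in co-cultured cells and 8.85, 8.47, 8.37 and 8.41 in cells alone.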
